A study of Mus musculus with 17 samples.

Results

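The genes described here are 31 genes that sensory hair cells use to build the hair bundle, to turn sound into current and to signal to nerve fibers. They were listed by name with earlier results of these data known, and all 31 were found among the 35285 genes of the deposited table, 1 row each. Cochlear RNA was sequenced from 17 wild-type male C57BL/6J mice, 8 weeks old, with 1 library per mouse. By the study's text, this strain has a mutation in Cdh23, 1 of the 31 genes. The 3 control mice received saline and no noise. The 7 NE mice were exposed to 2 h of noise between 8 and 16 kHz with a level of 100 dB SPL, which the sample labels call broadband and the study's methods call octave-band. The 7 brimonidine mice were exposed to the same noise and received brimonidine, an agonist of α2-adrenergic receptors, at 1 mg/kg by intraperitoneal injection the day before, the day of and the day after exposure. Tissue was taken on the second day after the noise. No sequenced group received brimonidine without noise, and the methods do not say whether the NE mice were injected. Noise and injection therefore cannot be told apart in NE against control, nor drug and injection in brimonidine against NE.

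Hair cells are the receptor cells of the cochlea. Each carries a bundle of actin-filled stereocilia that are tied together by fine links, and the tip links pull open the mechanotransduction channels when the bundle is deflected. Inner hair cells pass the signal on through ribbon synapses, where calcium enters through voltage-gated channels and vesicles gather around the ribbon. Outer hair cells amplify the motion by changing their length and receive efferent fibers from the brainstem through an acetylcholine receptor. These cells are few among the cells of a cochlea, and in RNA from bulk tissue a smaller number of hair cells and less RNA per hair cell cannot be told apart. The study reports, without showing the data, that inner and outer hair cells were preserved.

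The library totals behind the deposited values, read from the value of 1 fragment, were 14457726 to 16080790 fragments in the control group, 15769229 to 18288848 in the NE group and 16624422 to 18224921 in the brimonidine group. The fragments recovered over all genes of the table summed to 5.28% to 5.56% more than these totals in the 17 libraries. The labels name the source as cochlear cells and the cell type as interstitial cells. The study's text names cochleae for the sequencing in one place and basilar membrane tissue as the source of the sequenced RNA in another, so which tissue these levels are relative to is not settled. Genes of many cell types were present, and the summed FPKM (fragments counted on a gene, scaled to its exon length and to the library's total) of 10 neutrophil and marrow genes was 9670 to 65347, against 707 to 1618 for 18 genes of supporting cells and cochlear epithelium. Of the 527 values of the hair cell genes, 2 were 0, both of Atoh1, so hair cell transcripts were measured in every library, but at low levels.

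Control 2 stood apart from the other libraries. Its median correlation with the other libraries over all genes was 0.831, against 0.955 for control 1, 0.947 for control 3 and 0.97 to 0.981 for the exposed libraries. It held the highest control value for 27 of the 31 hair cell genes, where it held the highest control value for 51.2% of the 16416 genes expressed in these libraries. For 25 of the 31 it was the highest of all 17 libraries. The median ratio of control 2 to the mean of controls 1 and 3 was 2.26 over the 31 genes and 1.09 over all genes. Supporting cell genes had a median ratio of 2.21, spiral ganglion and peripheral neuron genes 2.51, stria vascularis genes 2.65 and neutrophil genes 0.264, so control 2 differed from the other controls in genes of many cell types. Controls 1 and 3 had a median ratio of 0.899 to the mean of the exposed libraries over the 31 genes and of 1.01 over all genes. They were not like the exposed libraries in every cell type, with a median ratio of 21 for cerebellar neuron genes, 2.37 for central glia genes and 0.331 for skeletal muscle genes. The group mean of the controls for most hair cell genes therefore rested on 1 library, and the fold changes of the genes tested in NE against control, and the counts past the adjusted p in both comparisons with control, are also given without it. Whether tissue composition had a part in this was not tested.

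**Figure D1:**
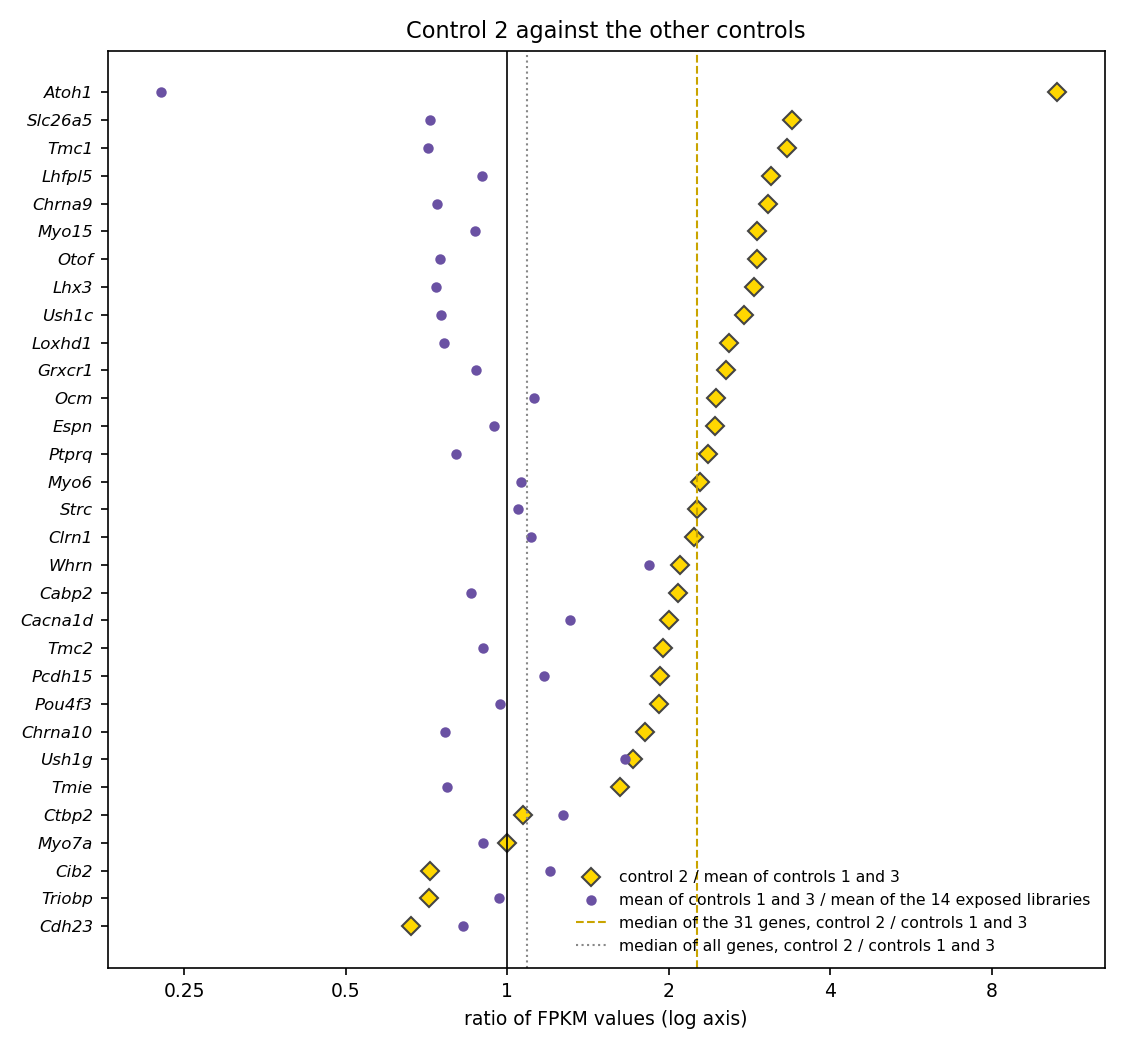
Ratio of FPKM values for each of the 31 hair cell genes, on a log axis. Diamonds show control 2 over the mean of controls 1 and 3, circles the mean of controls 1 and 3 over the mean of the 14 exposed libraries, and the dashed and dotted lines the medians of the first ratio over the 31 genes (2.26) and over all genes (1.09). Cdh23, Triobp and Cib2 lay below 1 in control 2, Myo7a lay at 1.00, and the other genes lay above.

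The level of the 31 genes spanned from a mean of 0.0643 FPKM for Atoh1 to 15.6 FPKM for Cib2 over the 17 libraries. A value of 1 FPKM was taken as the limit of low expression. By this limit, 8 genes were below 1 FPKM in every library, namely Atoh1, Chrna9, Clrn1, Grxcr1, Pcdh15, Slc26a5, Tmc2 and Ush1g. Another 13 were at 1 FPKM or more in every library, namely Cabp2, Cacna1d, Cib2, Ctbp2, Espn, Myo6, Myo7a, Ocm, Otof, Tmie, Triobp, Ush1c and Whrn. The other 10, Cdh23, Chrna10, Lhfpl5, Lhx3, Loxhd1, Myo15, Pou4f3, Ptprq, Strc and Tmc1, crossed the limit, and Lhx3, Myo15 and Strc reached it in control 2 alone. Of the 31, 11 were taken as also known in other cells that such a sample can hold. Ctbp2 and Triobp have forms made in most cells, Myo6 is a motor of many epithelia and neurons, Cib2 is made in many tissues with skeletal muscle, Cacna1d in neurons, heart and endocrine cells, Whrn in central neurons and retina, Pcdh15 in oligodendrocyte precursors, Atoh1 in precursors of cerebellar granule cells, Ocm in macrophages and neutrophils, and Chrna9 and Chrna10 in lymphocytes. This list was written from general knowledge after the values were seen, and it may leave out others of the 31. The 4 genes with the highest mean, Cib2, Triobp, Ctbp2 and Myo6, were all among these 11.

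**Figure D2:**
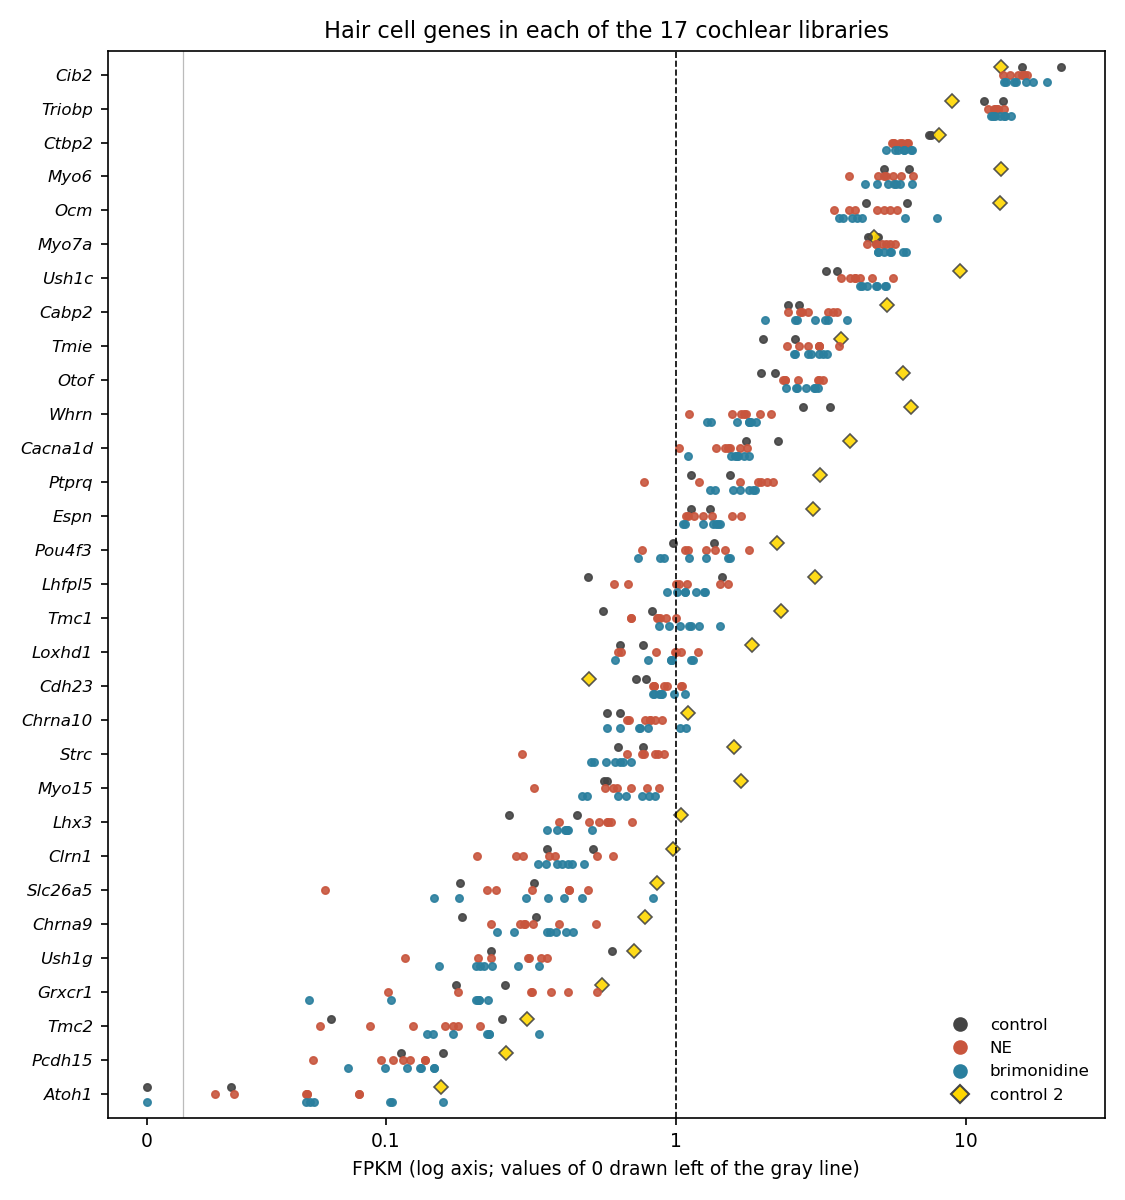
FPKM of the 31 hair cell genes in each of the 17 libraries, ordered by mean, on a log axis with a dashed line at 1 FPKM. Each point is a library, colored by group, and the yellow diamond is control 2. Control 2 is the highest library for 25 of the 31 genes, and the NE and brimonidine points overlap in every row.

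Among the genes of the bundle, the myosin motors were measured at unequal levels. Myo7a, the motor that anchors the upper end of the tip link, was at 4.78 ± 0.205 FPKM (SD) in the 3 control libraries, 5.13 ± 0.392 FPKM in the 7 NE libraries and 5.48 ± 0.488 FPKM in the 7 brimonidine libraries. Its level in control 2 was 4.80 FPKM, between 4.98 in control 1 and 4.57 in control 3. Myo7a was thus 1 of the few hair cell genes that were not higher in control 2.

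Myo6, the motor that moves toward the base of stereocilia, was at 5.19, 13.2 and 6.33 FPKM in controls 1, 2 and 3. It ranged from 3.93 to 6.54 with a median of 5.31 in the NE group, and from 4.48 to 6.48 with a median of 5.65 in the brimonidine group. Without control 2 the 3 groups lay in the same range. Myo15, the motor that carries whirlin to stereocilia tips, was at 0.323 to 0.872 FPKM in the exposed libraries and reached 1.67 FPKM in control 2.

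The actin proteins differed widely in level. Triobp, which bundles the actin of the stereocilia rootlets and has a short form in most cells, was at 13.4, 8.91 and 11.5 FPKM in the controls and 12.7 ± 0.464 and 13.1 ± 0.746 FPKM in the NE and brimonidine groups. Espn, the actin bundler of the stereocilia, was at 1.80 ± 1.02 FPKM in the control group, where 2.97 came from control 2, and at 1.31 ± 0.234 and 1.27 ± 0.153 FPKM in the exposed groups. Ptprq, a phosphatase of the shaft connectors at the bundle's base, was at 1.93 ± 1.06, 1.67 ± 0.506 and 1.63 ± 0.227 FPKM in the control, NE and brimonidine groups. Its lowest value, 0.778 FPKM, was in NE 6.

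The other bundle genes were low. Loxhd1, needed for lasting transduction, was at 0.614 to 1.83 FPKM over the 17 libraries, and Strc, which encodes stereocilin of the links between outer hair cell stereocilia, at 0.295 to 1.59 FPKM. Clrn1, an Usher syndrome gene, was at 0.206 to 0.973 FPKM, and Grxcr1, which shapes stereocilia, at 0.0543 to 0.554 FPKM. Grxcr1 rested on 1 to 10 fragments, fewer than the 14 to 57 of Clrn1, the 29 to 150 of Strc and the 76 to 228 of Loxhd1.

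Whrn encodes whirlin, a scaffold of the stereocilia tip and ankle that sets stereocilia length, and lies on chromosome 4 from 63414910 to 63495991 (mm10, minus strand). It was at 3.39, 6.44 and 2.73 FPKM in controls 1, 2 and 3. It ranged from 1.11 to 2.13 FPKM with a median of 1.71 in the NE group, and from 1.28 to 1.88 FPKM with a median of 1.78 in the brimonidine group. Every exposed library was below every control, control 1 and control 3 included. These values rested on 322 to 717 fragments in the controls and 129 to 275 in the exposed libraries.

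Of the tip link cadherins, Cdh23 forms the upper and Pcdh15 the lower part. The study states that the strain used has a mutation of Cdh23, which affects the expression of cadherin-23. Cdh23 was at 0.788, 0.502 and 0.727 FPKM in the controls, 0.831 to 1.05 in the NE group and 0.83 to 1.07 in the brimonidine group. The lowest value was that of control 2, and all 14 exposed libraries were above all 3 controls, the reverse of the order seen for Whrn. Pcdh15 was at 0.056 to 0.260 FPKM, on 21 to 94 fragments.

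At the tip link's ends, Ush1c (harmonin) and Ush1g (Sans) anchor the upper attachment. Ush1c was at 3.29, 9.5 and 3.6 FPKM in the controls, 3.70 to 5.57 in the NE group and 4.29 to 5.30 in the brimonidine group. Controls 1 and 3 were below all 14 exposed libraries, and control 2 was above them all, so the mean of the controls, 5.46 ± 3.5 FPKM, described none of them. Ush1g was at 0.116 to 0.717 FPKM.

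The channel genes were measured with few fragments. Tmc1, a pore-forming subunit of the transduction channel in mature hair cells, was at 0.560, 2.30 and 0.824 FPKM in the controls, 0.698 to 1.00 with a median of 0.868 in the NE group and 0.876 to 1.42 with a median of 1.11 in the brimonidine group. Tmc2, its relative used mainly before hearing begins, was at 0.0592 to 0.337 FPKM on 3 to 18 fragments. Per length, Tmc1 exceeded Tmc2 in all 17 libraries, by 3.28 to 11.8 times with a median of 5.53.

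The partners of the channel had no shared level. Tmie was at 2.76 ± 0.872, 2.99 ± 0.398 and 2.93 ± 0.305 FPKM in the control, NE and brimonidine groups. Lhfpl5, which joins the lower end of the tip link to the channel, was at 1.44, 3.01 and 0.498 FPKM in the controls and 1.05 ± 0.336 and 1.11 ± 0.123 FPKM in the exposed groups. Cib2, a calcium-binding partner of the TMC proteins that many tissues make, was at 15.6, 13.2 and 21.2 FPKM in the controls and 15.2 ± 1.02 and 15.5 ± 1.97 FPKM in the exposed groups, so control 2 was its lowest library.

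At the ribbon synapse, Otof encodes otoferlin, the calcium sensor of vesicle release. It was at 2.19, 6.06 and 1.96 FPKM in the controls, 2.34 to 3.22 in the NE group and 2.40 to 3.08 in the brimonidine group. Again controls 1 and 3 were below all exposed libraries and control 2 above them. Cabp2, which binds calcium and keeps the calcium channel available, was at 3.47 ± 1.60, 3.01 ± 0.453 and 2.96 ± 0.606 FPKM. Otof and Cabp2 were at like levels per length, with a ratio of 0.661 to 1.21 that exceeded 1 in 7 of the 17 libraries.

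Cacna1d encodes the pore of Cav1.3, the calcium channel of the inner hair cell synapse. It was at 1.74, 3.98 and 2.24 FPKM in controls 1, 2 and 3. The NE group ranged from 1.02 to 1.75 FPKM with a median of 1.51, and the brimonidine group from 1.10 to 1.78 FPKM with a median of 1.62. Controls 2 and 3 were above every exposed library, while control 1 overlapped both groups.

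Ctbp2 encodes RIBEYE, the main protein of the ribbon, and from another start the transcriptional corepressor CtBP2 that most cells make, and lies on chromosome 7 from 132987563 to 133124354 (mm10, minus strand). It was at 7.56, 8.06 and 7.46 FPKM in the controls, 5.56 to 6.28 with a median of 5.91 in the NE group and 5.28 to 6.51 with a median of 6.08 in the brimonidine group. The 3 controls were close to each other and above every exposed library. In GENCODE M21 a transcript of 988 codons (Ctbp2-214), the long form, starts at 133015248 of chromosome 7, and a transcript of 445 codons (Ctbp2-201) at 133123367. The deposited value adds up the fragments of both forms, so the level of the ribbon's own form was not measured.

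A start region of each of the pair of genes that differed between control and exposed libraries is shown for the contrast in composition. Each holds the 250 bases before a start given by RefSeq for GRCm38.p6, on the minus strand. Capitals mark 2 motifs searched on both strands, the GC box (GGGCGG or its reverse complement) and the TATA element (TATAAA or its reverse complement, which can overlap).
Whrn, chr4:63495992-63496241: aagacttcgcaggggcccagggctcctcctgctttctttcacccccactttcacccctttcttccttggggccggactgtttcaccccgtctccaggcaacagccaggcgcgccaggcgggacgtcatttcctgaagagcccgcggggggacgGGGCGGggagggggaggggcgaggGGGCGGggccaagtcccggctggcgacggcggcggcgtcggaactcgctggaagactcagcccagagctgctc
Ctbp2, long form, chr7:133015248-133015497: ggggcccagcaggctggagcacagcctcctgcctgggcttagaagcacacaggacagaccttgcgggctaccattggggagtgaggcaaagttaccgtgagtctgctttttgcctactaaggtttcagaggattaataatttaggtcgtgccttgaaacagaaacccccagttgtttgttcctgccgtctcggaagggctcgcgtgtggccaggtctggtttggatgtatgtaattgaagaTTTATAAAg
The Whrn window had 69.6% G and C and 2 GC boxes. The window before the long form of Ctbp2 had 51.6% G and C, no GC box and 2 overlapping TATA matches, 1 on each strand, next to the start. Another Ctbp2 window, chr7:133081861-133082110, is not shown and had 42.4% G and C and neither motif. The Ctbp2 value that differed adds up the fragments of its forms, so which start it came from was not measured. Over all 32851 windows of this length the median was 52.4% G and C, 32.7% held a GC box and 12.4% a TATA element. Windows were found for 25 of the 31 genes. These matches describe the letters and were not tied to binding of any factor.

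The efferent receptor of hair cells is formed by Chrna9 and Chrna10. Chrna10 was at 0.578 to 1.10 FPKM and Chrna9 at 0.183 to 0.784 FPKM over the 17 libraries. Chrna10 exceeded Chrna9 per length in all 17, by 1.41 to 3.17 times. Both genes are also known in lymphocytes.

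For outer hair cells, Slc26a5 encodes prestin, the motor protein of electromotility, and Ocm the calcium buffer oncomodulin. Slc26a5 was at 0.180, 0.858 and 0.324 FPKM in the controls, 0.0619 to 0.499 in the NE group and 0.146 to 0.834 in the brimonidine group, on 3 to 46 fragments. Ocm was at 6.23, 13.1 and 4.5 FPKM in the controls, 3.51 to 5.78 in the NE group and 3.64 to 7.90 in the brimonidine group. Ocm exceeded Slc26a5 per length by 7.92 to 88.0 times with a median of 13.9. The highest ratio was that of NE 6, which held 3 fragments of Slc26a5.

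Of the transcription factors, Pou4f3 maintains mature hair cells, while Atoh1 and Lhx3 act in their development. Pou4f3 was at 1.52 ± 0.646, 1.26 ± 0.327 and 1.14 ± 0.313 FPKM in the control, NE and brimonidine groups. Lhx3 was at 0.265 to 1.04 FPKM. Atoh1 had at most 6 fragments in any library and 0 in control 1 and brimonidine 4, so its level could not be resolved at this depth.

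The spread between exposed libraries was set beside the spread that counting fragments would give. The coefficient of variation over the 14 exposed libraries was 0.937 times the counting error for Atoh1, 1.02 times for Chrna9, 1.06 times for Lhx3 and Chrna10 and 1.10 times for Lhfpl5. For these genes the libraries differed by no more than about their counting error. It was 4.51 times the counting error for Myo6, 3.37 times for Ptprq and 2.90 times for Myo15. With 1 library per mouse, spread between mice and spread from dissection or library preparation cannot be told apart. NE 6 was a part of this spread. It held the lowest NE value for 16 of the 31 genes, against 37.2% of all genes, and its median ratio to the mean of the other NE libraries was 0.803 over the 31 genes and 0.919 over all genes.

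Noise exposure was compared with control first. A gene was tested when it had at least 1 FPKM in at least 3 of the libraries compared, the test was limma on log2(FPKM + 1), and a gene was called differentially expressed at an adjusted p under 0.05 and a fold change of at least 2, the study's thresholds. Of the 31 genes, 17 were tested and 14 were not. None of the 17 was called by both thresholds, where 5.76% of all 15950 genes tested were. At an unadjusted p under 0.05, 4 of them passed (Cacna1d, Ctbp2, Ocm and Whrn), against 32.9% of all genes, and limma voom on the recovered fragments called 1, Whrn, at -1.22 (5.88% of the 17, against 7.86% of all genes in that fit). By the adjusted p alone, 2 of the 17 fell, Whrn and Ctbp2, and none rose, while 14.1% of all genes passed this limit and 12% were lower. The share of hair cell genes was 11.8%, near that background. Without control 2 the same pair of genes passed the adjusted p, of 16 tested, against 6.74% of all genes. At an unadjusted p under 0.05, Cib2, Ctbp2 and Whrn were then lower and Otof, Tmie and Ush1c higher (background 20.3%), so Cacna1d and Ocm no longer passed.

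Whrn fell by 0.89 on the log2 scale in the NE group (SE 0.19, 95% interval -1.31 to -0.46, limma adjusted p = 0.0123), and was lower than the control mean in 7 of 7 libraries. The ratio of the group means was 0.405. Ctbp2 fell by 0.34 (SE 0.067, 95% interval -0.49 to -0.19, limma adjusted p = 0.00771), with a ratio of means of 0.765 and 7 of 7 libraries lower. These were the only tested hair cell genes whose NE and control libraries did not overlap (11.8%, against 18.3% of all genes tested, and 15% in the lower direction). The exact two-sided permutation p was 0.00833 for each, the smallest that 7 against 3 libraries can give. Without control 2, Whrn fell by 0.59 (adjusted p = 0.0320) and Ctbp2 by 0.31 (adjusted p = 0.0225). With libraries rescaled to equal sums, Ctbp2 was at -0.35 and no longer passed (adjusted p = 0.0588), while Whrn did.

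The other 15 tested genes did not pass. Cacna1d had a log2 fold change of -0.52 (SE 0.17, adjusted p = 0.0657), which became -0.27 without control 2 (adjusted p = 0.272) and -0.70 without control 1 (adjusted p = 0.0194). It passed the adjusted p in 3 other fits, at -0.77 with voom (adjusted p = 0.0468), at -0.52 in a single limma model of all 17 libraries (adjusted p = 0.015) and at -0.34 with weights per library (adjusted p = 0.00688), where 14.4%, 27.1% and 37.4% of all genes passed. Ocm was at -0.55 (SE 0.24, adjusted p = 0.148), at -0.16 without control 2 (adjusted p = 0.656) and at -0.84 without control 3, where it passed (adjusted p = 0.0467, against 11.7% of all genes). Myo6 was at -0.45 (SE 0.22, adjusted p = 0.180) and at -0.10 without control 2 (adjusted p = 0.769). Without control 1, the count by adjusted p rose from 2 to 5, with Cacna1d and Myo6 lower at -0.70 and -0.69 and Triobp higher at 0.30, while the share over all genes rose from 14.1% to 24.3%. Otof was at -0.12 (95% interval -0.64 to 0.39), Ush1c at -0.15 (-0.67 to 0.37), Lhfpl5 at -0.27 (-0.85 to 0.30), Espn at -0.23 (-0.63 to 0.17) and Pou4f3 at -0.14 (-0.52 to 0.24). Cabp2, Cib2, Loxhd1 and Ptprq lay between -0.11 and -0.09. All of these intervals held 0, and most held a change of 0.2 in either direction. Without control 2 these values turned to 0.28 for Otof, 0.26 for Ush1c, 0.08 for Lhfpl5, 0.05 for Espn, 0.06 for Pou4f3, 0.17 for Cabp2 and 0.18 for Ptprq, none past the adjusted p, while Cib2 went to -0.25 and Loxhd1 was not tested. Myo7a, Tmie and Triobp were the 3 genes above 0 with all controls, at 0.08, 0.11 and 0.17, and were at 0.08, 0.28 and 0.03 without control 2.

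The median log2 fold change of the 17 genes was -0.138, against -0.0441 over all genes tested. Without control 2 it was 0.0541 with 10 of 16 genes above 0. Without control 1 it was -0.298 and without control 3 it was -0.331. With all libraries in, it was 0.0123 with quantile normalization (9 of 17 above 0) and 0.129 with weights per library (11 of 17 above 0). The sign of the median over the hair cell genes thus turned with 1 control library and with these settings.

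Genes under the limit of low expression were compared without a call. Cdh23 did not overlap between NE and control and was higher in 7 of 7 libraries, with a log2 fold change of 0.20 (SE 0.093) and an adjusted p of 0.232 in the fit without the filter. Ush1g was at -0.25 (SE 0.10, adjusted p = 0.188) in the same fit. Tmc1 was at -0.19 and Slc26a5 at -0.13, and both ranges overlapped. Beside the lack of overlap of Cdh23, 18.3% of all genes tested did not overlap between NE and control, with 15% lower. No such share was computed for genes under the filter.

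The brimonidine group was then compared with the NE group, which sets noise with the drug against noise alone. A changed response to noise and an effect of the drug or its injection by itself cannot be told apart here. Here 19 of the 31 genes were tested, with Cdh23 and Tmc1 now among them, and none was called by both thresholds or by adjusted p. Over all 15707 genes, 0% were called by both thresholds and 1 gene (0.00637%) passed the adjusted p. At an unadjusted p under 0.05 limma passed 1 of the 19, Tmc1, against 5.77% of all genes, and voom passed none by adjusted p. Tmc1 had entered the test through the brimonidine group, with 5 of 7 libraries at 1 FPKM or more against 1 of 7 NE libraries, so its passing is no support for a difference. The 19 log2 fold changes lay between -0.08 and 0.18 and their adjusted p between 0.836 and 0.999. Each 95% interval on log2(FPKM + 1) lay between -0.32 and 0.34. The change of 1 that the fold limit asks for on this scale was outside all 19. No hair cell gene was free of overlap between these groups (background 0.14%).

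Tmc1, given here as a description, differed by 0.18 on the log2 scale (SE 0.072, 95% interval 0.03 to 0.34, limma adjusted p = 0.836), and was above the NE mean in 7 of 7 brimonidine libraries. The ranges of 0.698 to 1.00 and 0.876 to 1.42 FPKM overlapped. With a pseudocount of 0.1 its difference was 0.34 (limma adjusted p = 0.845) and with voom 0.37 (adjusted p = 0.734). Whrn differed by -0.03 (95% interval -0.21 to 0.16), Ctbp2 by 0.02 (-0.08 to 0.12), Cacna1d by 0.06 (-0.11 to 0.23) Otof by 0.02 (-0.13 to 0.17) and Cabp2 by -0.03 (-0.24 to 0.19). On log2(FPKM + 1), the 95% intervals of Ctbp2, Cacna1d, Otof and Cabp2 thus lay within 0.24 of no difference. This scale understates the change of low genes, so that limit does not hold for the change in FPKM itself. For Ctbp2 the value adds up the fragments of both forms, so the ribbon's own form was not measured. Of the 12 genes not tested, Lhx3 and Grxcr1 had the largest differences in the fit without the filter, -0.13 and -0.17 (adjusted p = 0.898 for both).

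**Figure D3:**
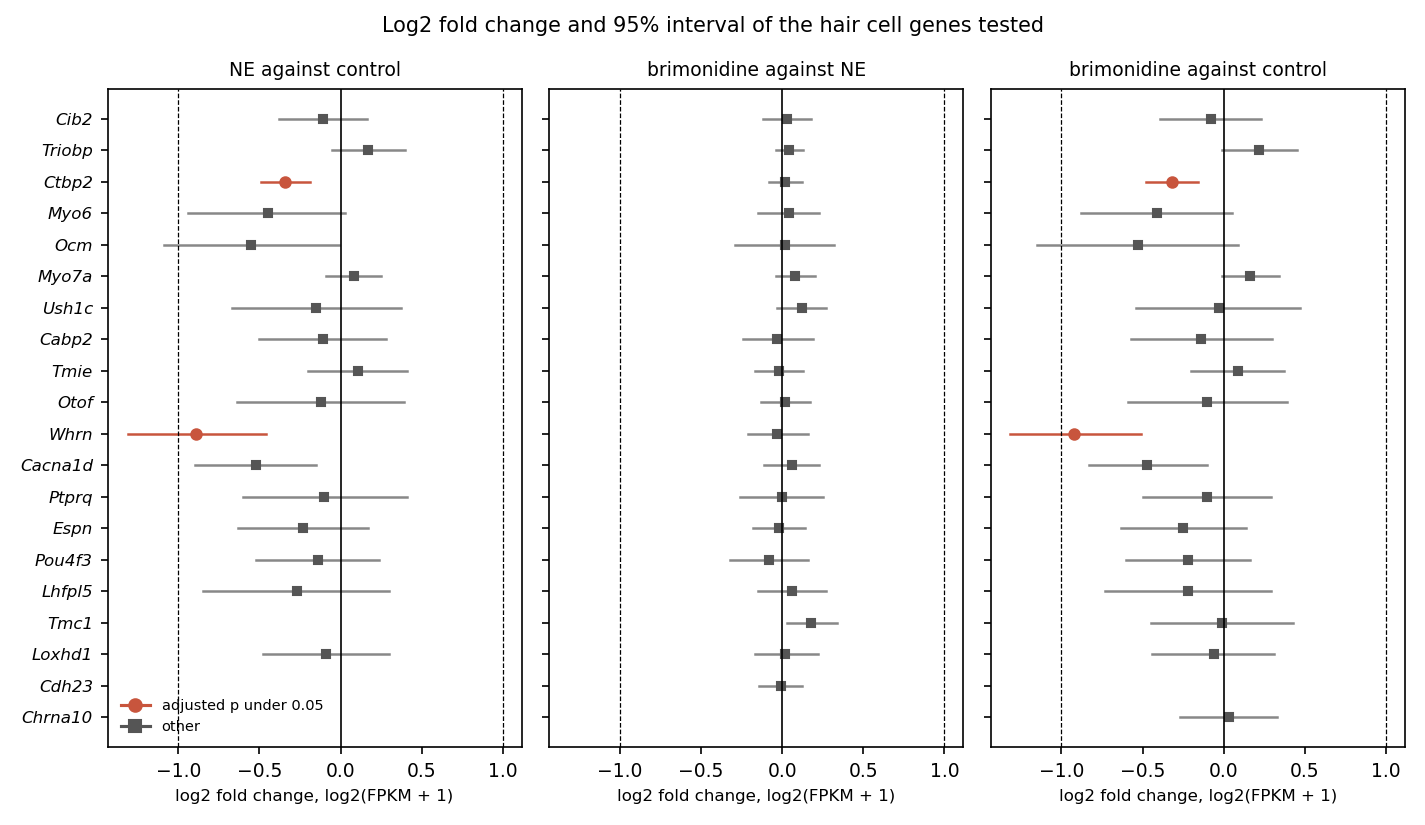
Log2 fold change on log2(FPKM + 1) with its 95% interval for the hair cell genes tested in each comparison, ordered by mean level, with dashed lines at a fold change of 2. Red circles mark an adjusted p under 0.05, which only Whrn and Ctbp2 reach, at -0.89 and -0.34 for NE against control and -0.92 and -0.32 for brimonidine against control. In the middle panel all intervals lie between -0.32 and 0.34.

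Brimonidine with noise was last compared with control. This comparison shares its 3 control libraries with that of NE against control, so both carry the same control 2. Of 19 genes tested, none was called by both thresholds (background 5.73%), 3 had an unadjusted p under 0.05 (Cacna1d, Ctbp2 and Whrn, background 35.6%), and voom called Whrn (background 8.06%). By adjusted p, Whrn and Ctbp2 fell and none rose (background 15.8%, lower 12.3%). Whrn fell by 0.92 (SE 0.18, limma adjusted p = 0.00792) and Ctbp2 by 0.32 (SE 0.072, limma adjusted p = 0.0151), both in 7 of 7 libraries, and their groups did not overlap (background 19.4%, lower 14.3%). Ctbp2 did not pass with equal sums (-0.31, adjusted p = 0.0777) or quantile normalization (-0.20, adjusted p = 0.0582). Without control 2 the values of Whrn and Ctbp2 were -0.62 (adjusted p = 0.00898) and -0.29 (adjusted p = 0.0415), and Ush1c then passed in the other direction at 0.38 (adjusted p = 0.0195), against -0.03 with all 3 controls. The share over all genes without control 2 was 9.48%. At an unadjusted p under 0.05, 6 of the 17 hair cell genes then tested passed by limma, against 25.2% of all genes. Leaving out control 1 raised the count from 2 to 5 of 19, with Cacna1d and Myo6 lower and Triobp higher, and the share over all genes from 15.8% to 30.1%. The median over the 19 genes was -0.102, against 0.0691 without control 2, 0.0781 with quantile normalization and 0.122 with weights per library.

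**Figure D4:**
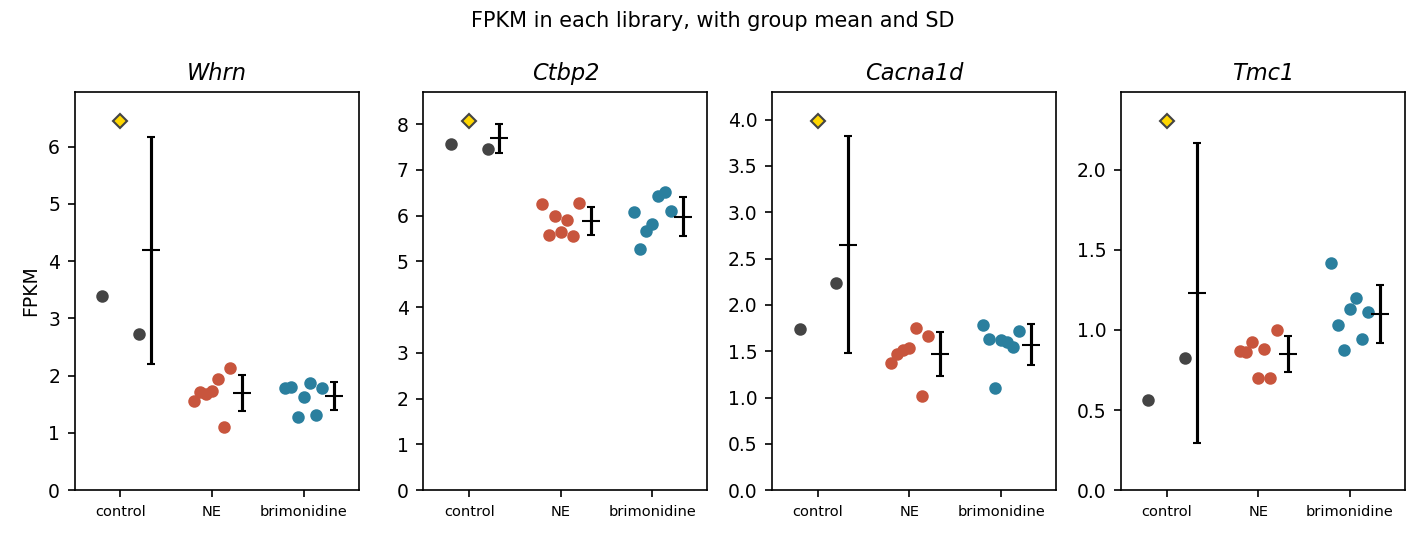
FPKM of Whrn, Ctbp2, Cacna1d and Tmc1 in each library, with group mean and SD at the side of each group, axes from 0. The yellow diamond is control 2. For Whrn and Ctbp2 all 3 controls lie above the 14 exposed libraries, for Cacna1d control 1 (1.74 FPKM) overlaps them, and for Tmc1 controls 1 and 3 (0.560 and 0.824 FPKM) lie within or below them.

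The genes listed as known in other cells were set apart from the rest. The summed FPKM of the 20 hair cell genes not on that list was 24.9, 53.1 and 25.2 in the controls, 25 to 35.2 in the NE group and 26.8 to 33.2 in the brimonidine group. Control 1 lay below every exposed library, and control 3 below every exposed library but NE 6, at 25. The summed FPKM of the 11 genes known elsewhere was 54.0, 69.2 and 57.1 in the controls, 46.4 to 50.2 in the NE group and 47.4 to 55.4 in the brimonidine group.

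Markers of cerebellar neurons moved with the groups. In NE against control all 16 passed the adjusted p in the lower direction, with a median log2 fold change of -3.78, and in brimonidine against control all 16 did so with a median of -3.55. Of these, 11 in NE against control and 10 in brimonidine against control were at 1 FPKM or more in fewer than 3 libraries of the exposed group and were tested through the controls, where they were high, so these counts and medians are a description. The other 5 and 6 genes were lower too. Without control 2, all of the 9 and 14 tested there were lower. In NE against control, Car8, Cbln3, Gabra6 and Grm4 were again tested through the controls. In brimonidine against control, Cbln3, Cnpy1, En2, Gabra6, Grm4, Neurod1, Pcp2 and Ppp1r17 were, so these counts are a description too. Their summed FPKM was 298, 804 and 305 in the controls, 23.9 to 35.5 in the NE group and 24.6 to 30.8 in the brimonidine group apart from brimonidine 5 at 108, with Zic2, Cbln3 and Cbln1 the highest, and none of the 16 was at 0 in every library. Of 6 central glia genes tested, 3 passed as lower in NE against control and 4 in brimonidine against control, where 12% and 12.3% of all genes did. Without control 2, 2 of the 6, Aldoc and Mog, passed as lower in each comparison. Whrn and Cacna1d are known in central neurons, and Ctbp2 is made in most cells. The part of these cells in the values of Whrn, Ctbp2 and Cacna1d was not tested.

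**Figure D5:**
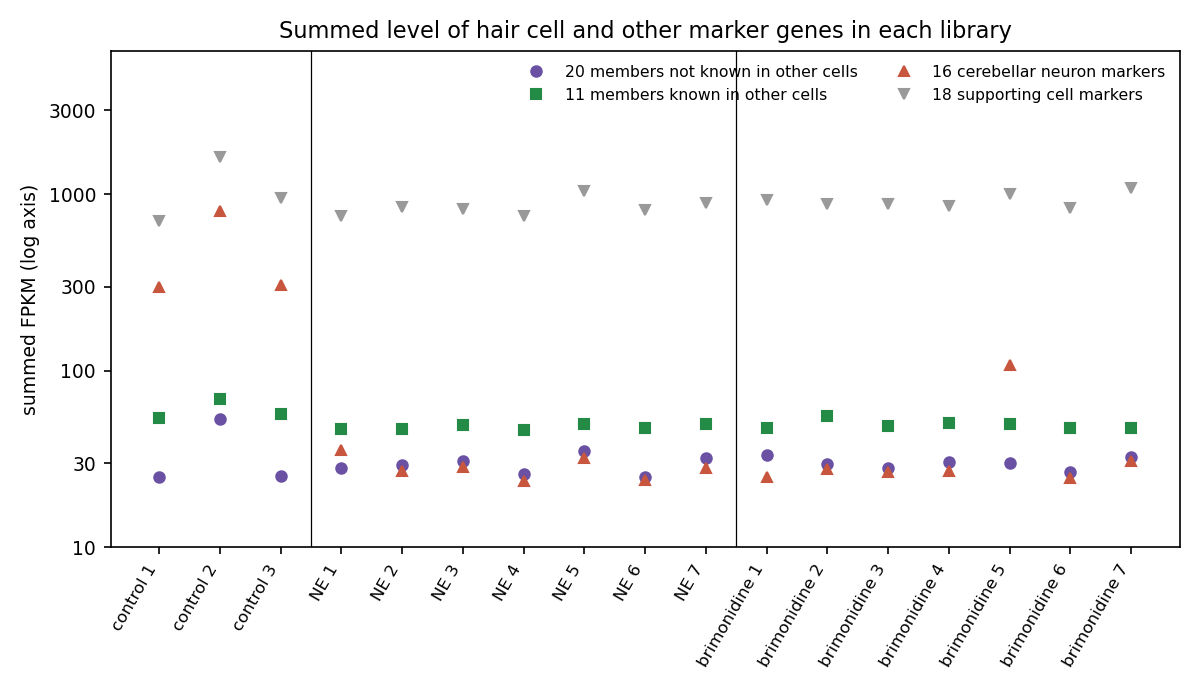
Summed FPKM in each library on a log axis, for the 20 hair cell genes not listed as known in other cells, the 11 listed as such, 16 markers of cerebellar neurons and 18 of supporting cells. The cerebellar markers lie at 298 or above in the controls and at 108 (brimonidine 5) or below in the exposed libraries, while the 20 hair cell genes stay between 24.9 and 35.2 in every library but control 2 (53.1).

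As a further description, chosen after the values were seen, each gene was divided by the summed FPKM of those 20 genes in its library (leaving itself out), which takes out the shared height of control 2. Whrn was then at 10.8% to 13.6% of that sum in the controls, with 12.1% in control 2, and at 4.46% to 6.65% and 4.51% to 6.27% in the NE and brimonidine groups. Cacna1d was at 6.98% to 8.88% in the controls and 4.08% to 5.89% and 3.87% to 5.78% in the exposed groups, and Myo6 at 20.9% to 25.1% against 15.7% to 20.3% and 15.8% to 20%. Ctbp2 overlapped, at 15.2% to 30.4% in the controls. The 15.2% was that of control 2, where Ctbp2 was at 8.06 FPKM, near the other controls, while the sum it was divided by was at 53.1. Of the 17 genes tested in NE against control, these 3 (17.6%) were lower with no overlap, where 11.7% of all genes were, and in brimonidine against control 3 of 19 (15.8%), where 12.3% were. Of the members that were not tested, Pcdh15 was also lower with no overlap in NE against control (0.456% to 0.622% in the controls, 0.224% to 0.44% in the NE group), and Strc in brimonidine against control (2.61% to 3.14% against 1.84% to 2.35%). The share over all genes that were not tested was not computed. Between brimonidine and NE no hair cell gene was free of overlap on this scale (background 0.0891%).

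The other hair cell genes of a list of 42 found in the table were read in the same fits. In NE against control 30 were tested, of which 11 fell and 1 rose (over all genes, 14.1% passed and 12% were lower). Of the 11, 8 were at 1 FPKM or more in at least 3 NE libraries. They were led by Atp2b2 (-2.24), a calcium pump of the bundle, Elmod1 (-2.03), a regulator of small GTPases, Bsn (-1.90), a scaffold of the presynaptic zone, Calb2 (-1.57) and Cabp1 (-1.45), calcium-binding proteins in both cases, Slc7a14 (-0.99) and Tprn (-0.75). The other 3, Rims2 (-2.08) and Pclo (-1.96), scaffolds of the presynaptic zone, and Kcnma1 (-1.19), the BK potassium channel, were below 1 FPKM in all NE libraries and were tested through the controls, where they were high, so their values are a description. Many of these are also genes of central neurons, and the cerebellar markers given above moved the same way, and their part was not tested. The single gene that rose, named after its value was seen, was Gfi1 (0.74), a transcriptional repressor of hair cells and of blood cells. Neutrophil and marrow genes were above 0 with it, 10 of 10 in both comparisons with control, with medians of 0.758 and 0.779 that were 0.0481 and 0.143 without control 2, and their part was not tested. Without control 2, Gfi1 was at 0.40 (adjusted p = 0.102) in NE against control and at 0.44 (adjusted p = 0.0164) in brimonidine against control. Of 26 genes then tested in NE against control, 6 fell, namely Atp2b2 (-1.73), Bsn (-1.49), Cabp1 (-1.02), Elmod1 (-1.64), Slc7a14 (-0.60) and Tprn (-0.52), and Xirp2, an actin-binding protein of stereocilia and of striated muscle, rose (1.02), where 6.74% of all genes passed. All 7 skeletal muscle genes tested also rose in that fit, with a median of 1.49, and their part was not tested. In brimonidine against control 29 were tested with all libraries, of which 13 fell and Gfi1 rose (0.78), where 15.8% of all genes passed and 12.3% were lower. Of the 13, Rims2, Pclo and Kcnma1 were again tested through the controls, with 0 or 1 brimonidine library at 1 FPKM or more, and the other 10 were not. The 10 lower genes with the smallest p in that fit were Rims2 (-2.10), Bsn (-1.81), Elmod1 (-1.98), Pclo (-1.95), Atp2b2 (-2.17), Cabp1 (-1.44), Calb2 (-1.71), Kcnma1 (-1.22), Tprn (-0.73) and Eps8 (-0.48), an actin regulator of stereocilia tips. Without control 2, 9 of 27 fell in brimonidine against control, and Gfi1 and Xirp2 rose, where 9.48% of all genes passed. Of these 9, Kcnma1 was again tested through the controls, with 1 brimonidine library at 1 FPKM or more, so its value is a description. Of the 7 skeletal muscle genes 3 rose in that fit, with a median of 1.3. In brimonidine against NE 27 were tested and none passed the adjusted p, by limma (background 0.00637%). The median log2 fold changes of these tested genes were -0.298, -0.315 and 0.0218 in NE against control, brimonidine against control and brimonidine against NE, where all genes tested had medians of -0.0441, -0.0314 and 0.0149. With all libraries, the medians against control include Rims2, Pclo and Kcnma1, which were tested through the controls. Without control 2 the medians were -0.107 in NE against control and -0.142 in brimonidine against control, where all genes tested had -0.0137 and -0.0042.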

How the data were processed

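RNA from cochlear tissue of 17 mice was measured by RNA sequencing. The study names both cochleae and basilar membrane tissue for it. Per the study's methods and the labels, RNA was extracted with TRIzol, libraries were made with a stranded mRNA kit and sequenced on a NovaSeq instrument. The submitters' processing notes name Trimmomatic, HISAT2, HTSeq, Cufflinks and mm10, with no versions, and whether counting used strand is not given in the sources used here. The authors deposited FPKM values, fragments counted on a gene divided by its exon length and by the library's total, with no other scaling between libraries. With GENCODE M21 lengths, 94.6% of values under 200 fragments were whole within 0.02 fragments, which gave the fragments behind each value. No per-sample column was left unused.

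Genes with at least 1 FPKM in at least 3 libraries compared were fitted with limma 3.58.1 (lmFit, eBayes with a trend) in R 4.3.3 on log2(FPKM + 1), over all genes, with Benjamini-Hochberg adjustment. Fold changes on this scale understate the change of low genes. The study's test, DESeq2, was not used. The deposited values are FPKM, so limma on the log scale took its place, with voom on the recovered fragments as an alternative. Each model held the 2 groups compared. Exact two-sided permutation tests of the difference of mean log2 values used scipy 1.17.1 in Python 3.11.15. The fit was tested on simulated data. The mice are separate animals, but where and when libraries were made is not labelled.

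The members and lists were chosen with earlier results of these data known. All members are accounted for, values in each group are given for those with a mean of at least 1 FPKM or an adjusted p under 0.05, and other hair cell genes are named where the adjusted p was under 0.05, at most 10 per comparison by p. Alternatives were a pseudocount of 0.1, no filter, other scalings, a single model of all libraries, a robust eBayes step, weights per library, voom on the recovered fragments, the replicate number as a block, other thresholds and each library left out. The counts of the other hair cell genes without control 2 were added after the values were seen. Deviations of same-numbered libraries correlated at -0.221 to 0.0832, with none over 0.1, so the numbers did not pair the samples.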

Additional observations from a re-analysis of the deposited data

Results flagged for a closer look

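Of 62 groups of 7 libraries examined, 3 held a library far from the others, where chance gives about 1 in 20. Strc, a gene of the links between outer hair cell stereocilia, was at 0.295 FPKM in NE 6 (29 fragments), against 0.676 FPKM or more in the other NE libraries. Lhx3, a developmental transcription factor, was at 0.512 FPKM in brimonidine 2 (28 fragments), against 0.423 FPKM or less in the others of that group. Cacna1d, the calcium channel gene of the ribbon synapse, was at 1.10 FPKM in brimonidine 3 (252 fragments), against 1.55 FPKM or more in the others. All 3 genes were left with the values of these libraries in.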

How the results depend on the processing

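For NE against control, 319 of 337 alternative fold changes of single genes kept their call and, for genes that had not passed, moved by less than 1 SD, and for brimonidine against control 352 of 374 did. This SD, the mean of the SDs of the groups compared, includes the spread from control 2, so a turn of sign could fall within it. Ush1c in NE against control counted as kept in 20 of 20 alternatives while it ranged from -0.38 to 0.26. The count called by both thresholds, 0 in these comparisons, was 1 with a pseudocount of 0.1 (7.59% and 7.66% of all genes) and 1 with voom (7.86% and 8.06%), Whrn each time, 2 with no minimum fold change (14.1% and 15.8%), and 4 and 3 with an unadjusted p (32.9% and 35.6%). Leaving out each library gave 0 to 1, with Whrn the gene called without control 3 in both (5.23% and 5.84% of all genes) and without control 1 in brimonidine against control (6.92%). The count by adjusted p, 2 in both, was 1 with equal sums (Ctbp2 lost, 10.1% and 11.8% of all genes), 3 with a single model of all libraries (27.1% and 27.9%), 3 with voom in NE against control (14.4%), with Cacna1d added in both settings, 4 of 17 with quantile normalization in NE against control (15.4% of all genes), and 5 of 17 and 9 of 19 with array weights (37.4% and 43.4% of all genes). Leaving out each library gave 2 to 5, with 5 without control 1. The count of other hair cell genes past the adjusted p was 7 in place of 12 without control 2 in NE against control (6.74% of all genes in place of 14.1%), and 11 in place of 14 in brimonidine against control (9.48% in place of 15.8%). The counts of 12, 14 and 11 include genes that were tested through the controls, where they were high.

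With the replicate block none of the hair cell genes tested passed the adjusted p by limma in either comparison, a count of 0 where 0% and 1.48% of all genes passed, and 1 had an unadjusted p under 0.05 in each. The adjusted p was 0.273 for Whrn and 0.388 for Ctbp2 in NE against control and 0.147 and 0.359 in brimonidine against control. The samples share only a number, as their correlations show. In brimonidine against control Ctbp2 also missed the limit with quantile normalization (adjusted p = 0.0582). Array weights turned Otof to 0.32 in NE against control, and Lhfpl5 to 0.41, Otof to 0.34 and Ush1c to 0.32 in brimonidine against control. Leaving out each library moved Ush1c there from -0.27 to 0.38. The cause was not tested. Brimonidine against NE stayed at 0 in each alternative but the unadjusted p, which gave 1, and 451 of 453 fold changes held in the same sense, the other 2 being those of Tmc1 with a pseudocount of 0.1 and with voom.

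Scaling by the median ratio moved the median of all genes in NE against control from -0.0441 to 0.0573 and quantile normalization to 0.0621. Counting error limits the genes under 1 FPKM, and intervals of Atoh1, Grxcr1 and Tmc2 rest on few fragments. With 3 controls, 1 of which stood apart, changes within the spread of the controls were not detectable.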
